A study of Mus musculus with 2 samples.

Results

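Enteroendocrine cells are the hormone-producing cells of the gut epithelium, and 10 genes of that lineage were followed by name through 2 lists of open chromatin, among 22367 protein-coding genes annotated on the same assembly. They comprised 6 transcription factors of enteroendocrine fate (Neurog3, Neurod1, Pax4, Insm1, Isl1 and Nkx2-2), the granins Chga and Chgb, and the hormone genes Gcg and Cck. Enteroids, epithelial cultures grown from ileal crypts of 4-month-old C57Bl6/129sv mice, were profiled by ATAC-seq, in which a transposase cuts and tags accessible DNA. Control enteroids, labelled WT, were Taf4 lox/lox with no Cre named in the study's methods, while Taf4-inactivated enteroids, labelled KO, were Taf4 lox/lox::VilCreERT2, in which the villin promoter drives a tamoxifen-inducible Cre in epithelial cells. The Taf4 protein belongs to TFIID, the complex that recruits RNA polymerase II to promoters. Both cultures received 1 µM 4-hydroxytamoxifen (4-OHT) for 3 days, so that the drug was shared and the Cre was not, and how completely Taf4 was deleted was not measured here. There was 1 library per genotype, and every difference below describes these 2 libraries, without a test between genotypes.

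Enteroendocrine cells arise from secretory precursors of the crypt in which NEUROG3, a basic helix-loop-helix factor, is switched on for a short time. NEUROG3 is followed by further factors, among them NEUROD1, PAX4, INSM1, ISL1 and NKX2-2, which set up the endocrine programme and the choice of hormone. Mature cells store peptide hormones in dense-core granules with chromogranins and release them on nutrient stimuli, and they are rare in the epithelium.

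A start site peak was a peak within 1 kb of any annotated transcript start of the gene, and a distal peak was any other peak in the gene body or 50 kb to each side. Peaks of the 2 lists that overlapped by 1 bp or more were partners. The fold of a peak is its enrichment over the background of its own library, so peaks were placed by the percentile of their fold within their own list and fold was not compared between libraries. Values of −log10 q, averages over each peak as the authors deposited them, had a minimum of 1.01 in the control list and 1.00 in the Taf4-inactivated list. A start site peak does not report transcription, and in these bulk cultures fewer cells with an open site and less opening per cell cannot be told apart.

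The control list held 90445 peaks and the Taf4-inactivated list 71282. By estimate the Taf4-inactivated library had 60.5% of the depth of control, so weak peaks were easier to call in control. Strong calls were more numerous after inactivation. A −log10 q of at least 2 was reached by 44495 control peaks (49.2%) and 45640 Taf4-inactivated peaks (64.0%). At 5 or more there were 10757 (11.9%) and 20474 (28.7%). A fixed threshold on −log10 q therefore kept unlike shares of the 2 lists. At all 6 markers of intestinal epithelium a start site peak was called in both lists, and none of the 3 immune markers (Ptprc, Cd3e, Csf1r) had one in either list. The 3 neuronal markers Elavl4, Tubb3 and Rbfox3, of a cell type that shares granule genes with endocrine cells, were also called at the start site in both lists. Of the pancreatic islet markers, Ins2 and Nkx6-1 had one in both lists, Pdx1 in control alone and Ins1 in neither. In the fibroblast list Pdgfrb had none in either list and the other 3 had one in both, and of the endothelial genes Kdr had one in both, Pecam1 in control alone and Cdh5 in neither. Among markers of other secretory and tuft cells, list-specific calls also occurred. Of the goblet markers 3 were called in both lists, Agr2 in control alone and Tff3 after inactivation alone. For Muc2, called in both, the strongest start site peaks of the 2 lists did not overlap. Of the Paneth markers Lyz1 and Itln1 were called in both lists and Mmp7 and Ang4 in neither. Of the tuft markers 3 were called in both lists and Avil after inactivation alone. A called start site in these libraries therefore did not mark a cell type, and the part that cells of other types had in the values below was not tested.

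The DNA just upstream of the gene starts differed widely between members. The stretches of 150 bases before the gene start are shown for the most GC-rich member with a peak in both lists (Insm1), for the gene called in control alone at the head of the lineage (Neurog3), for both genes called after Taf4 inactivation alone (Isl1, Cck), for the granin with the weakest shared peak (Chga) and for the gene with no peak (Gcg). They were read from the mm9 reference on the strand of the gene, 5′ to 3′, and end at the base before the annotated start. Capitals mark matches, on either strand, to TATAAA (the TATA box), CAGATG (an E-box of the kind bound by NEUROG3 and NEUROD1), CAGCTG (a related E-box), TGTTTAC (bound by FOXA factors), AGATAA (bound by GATA factors), TGANTCA (bound by AP-1 factors), TGACGTC (part of the cAMP response element) and CAGCACC (part of the RE1 element bound by REST).
Insm1, chr2:146047507-146047656, plus strand: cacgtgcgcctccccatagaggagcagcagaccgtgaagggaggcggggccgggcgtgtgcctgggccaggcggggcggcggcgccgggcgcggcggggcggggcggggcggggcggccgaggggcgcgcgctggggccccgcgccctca
Neurog3, chr10:61595688-61595837, plus strand: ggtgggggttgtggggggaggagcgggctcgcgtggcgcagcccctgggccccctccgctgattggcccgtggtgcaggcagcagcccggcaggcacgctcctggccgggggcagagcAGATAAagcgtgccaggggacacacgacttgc
Isl1, chr13:117099897-117100046, minus strand: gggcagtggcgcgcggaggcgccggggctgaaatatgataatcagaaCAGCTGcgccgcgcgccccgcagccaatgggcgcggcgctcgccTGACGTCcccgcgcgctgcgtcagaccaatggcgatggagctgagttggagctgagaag
Cck, chr9:121404808-121404957, minus strand: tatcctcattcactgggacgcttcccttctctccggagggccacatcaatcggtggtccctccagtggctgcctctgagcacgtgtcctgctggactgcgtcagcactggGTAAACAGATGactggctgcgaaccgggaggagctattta
Chga, chr12:103793029-103793178, plus strand: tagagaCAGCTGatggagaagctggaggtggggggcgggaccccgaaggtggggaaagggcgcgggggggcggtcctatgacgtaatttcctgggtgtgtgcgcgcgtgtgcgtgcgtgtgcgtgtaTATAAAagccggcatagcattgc
Gcg, chr2:62321708-62321857, minus strand: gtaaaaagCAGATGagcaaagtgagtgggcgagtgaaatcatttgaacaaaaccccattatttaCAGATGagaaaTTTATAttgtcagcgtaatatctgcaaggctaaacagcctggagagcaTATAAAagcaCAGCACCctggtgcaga

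The Insm1 stretch was 84.7% G or C with 24 CpG dinucleotides and no motif match, and all of it lay inside the start site peak of both lists. At the other end, the Gcg stretch was 40.7% G or C with 2 CpG, held 5 matches and touched no peak. The 150 Cck bases lay wholly inside the start site peak called after Taf4 inactivation and outside any control peak, and a FOXA match ran into an E-box there. Of the 150 Isl1 bases, 109 lay inside the Taf4-inactivated peak and none in a control peak. The Chga bases, with a TATA box 23 to 18 bases before the start, were covered in the Taf4-inactivated list and not in control. The Neurog3 bases were covered in neither list, because its control peak lay downstream of the start. In the same 150-base stretch of all protein-coding genes, the TATA box was found in 7.88%, CAGATG in 7.22%, CAGCTG in 7.51%, the FOXA motif in 1.59%, the AP-1 motif in 3.62%, TGACGTC in 2.77% and the RE1 part in 3.31%. The GATA motif, matched in Neurog3, was found in 5.0%. A match says only that the letters are present.

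Of the 10 genes, 7 had a start site peak in control, where 68.4% of protein-coding genes had one, and 7 had one after Taf4 inactivation, against 65.6%. A start site peak was called in both lists for 5 genes (62.7% of protein-coding genes), which were Pax4, Insm1, Nkx2-2, Chga and Chgb. It was called in control alone for 2 genes, Neurog3 and Neurod1 (5.70%), in the Taf4-inactivated list alone for 2, Isl1 and Cck (2.90%), and in neither list for Gcg (28.7%). By role, the 6 factors divided into 3 called in both lists, 2 in control alone and 1 after inactivation alone. The 4 granin and hormone genes divided into 2 in both, 1 after inactivation alone and 1 in neither. All 4 genes called in 1 list alone rested on weak peaks, with −log10 q between 1.37 and 1.73. Over all protein-coding genes, −log10 q was under 2 for 57.4% of the 1276 called in control alone and for 37.7% of the 648 called after inactivation alone. When a −log10 q of at least 2 was required, 3 members (Insm1, Nkx2-2 and Chgb) were called in both lists (55.6% of protein-coding genes), 0 in 1 list alone (9.56%) and 7 in neither (34.8%). At 5 or more Chgb was called in both lists (34.0%), Insm1 in control alone (1.41%), 0 members after inactivation alone (12.4%) and 8 in neither (52.1%). With the starts of protein-coding transcripts alone, Insm1, Chga and Chgb were called in both lists (61.8% of protein-coding genes), Pax4 joined Neurog3 and Neurod1 in control alone (5.79%), Nkx2-2 joined Isl1 and Cck after inactivation alone (2.94%), and Gcg was again in neither (29.5%).

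**Figure D1:**
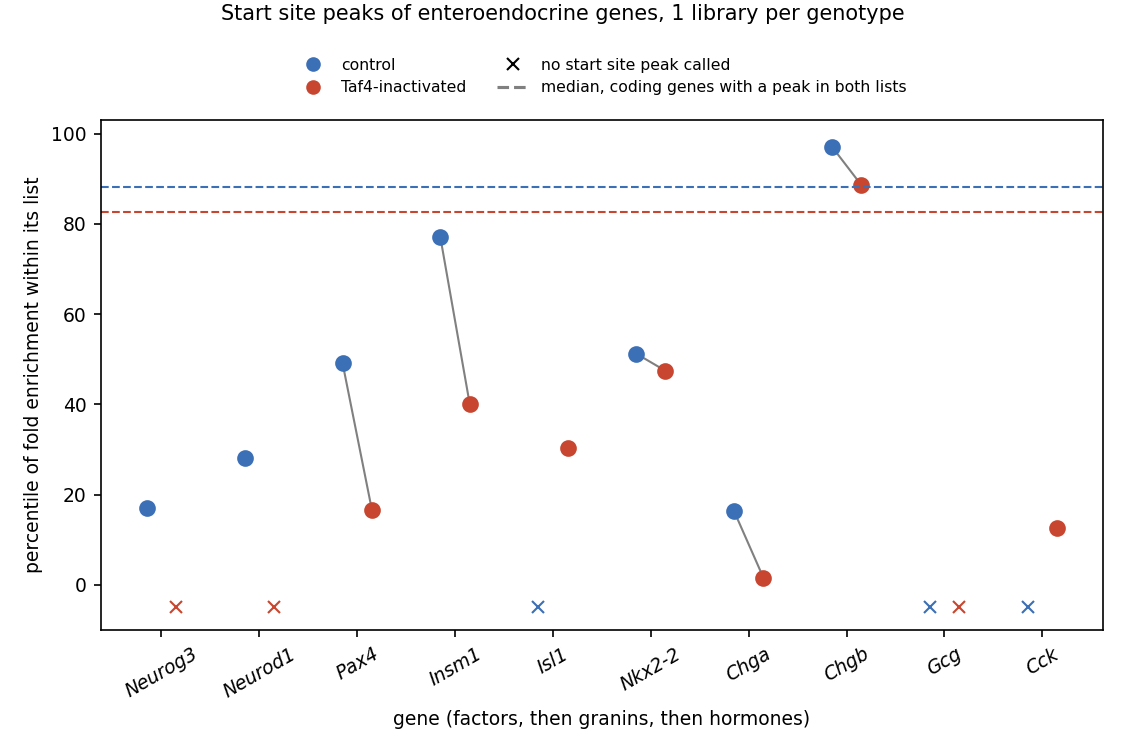
Start site peaks of the 10 genes: the vertical axis gives the percentile of fold of the strongest start site peak within its own list, for the control (blue) and Taf4-inactivated (red) library, with crosses below 0 where no peak was called and dashed lines at the medians of protein-coding genes with a peak in both lists (88.2 and 82.6). Chgb is the only gene above its median line in both libraries, and each of the 5 genes with a value in both is lower after Taf4 inactivation.

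Among the factors, Neurog3, which starts the endocrine programme in crypt progenitors (ENSMUSG00000044312.3, chr10:61595838-61597511, plus strand), had a control peak at chr10:61596057-61596942. This peak began 219 bp downstream of the start, lay over the exonic sequence of the gene and had a fold of 1.87, a −log10 q of 1.70 and a percentile of 17.1. It lay also within 1 kb of an annotated start of 2010107G23Rik, which has annotated exons on both sides of Neurog3. In the Taf4-inactivated library the nearest peak was 16373 bp away.

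Neurod1, a helix-loop-helix factor that acts after NEUROG3 and drives endocrine differentiation (ENSMUSG00000034701.8, chr2:79292678-79296908, minus strand), had a control peak at chr2:79297367-79297710, upstream of its start. Its fold was 1.93, its −log10 q 1.37 and its percentile 28.1. A start of Cerkl lay within 1 kb of the same peak, so the 2 genes could not be told apart there. The nearest Taf4-inactivated peak was 53963 bp away.

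Pax4, a paired homeobox factor of early endocrine precursors (ENSMUSG00000029706.8, chr6:28392334-28399353, minus strand), had start site peaks in both lists, but not at the same place. The control peak, chr6:28399295-28399519, was 225 bp wide, covered the gene start and had a fold of 2.03, a −log10 q of 1.74 and a percentile of 49.2. It had no partner, and the nearest Taf4-inactivated peak was 3388 bp away. The Taf4-inactivated peak, chr6:28394941-28395906, lay inside the gene at the start of a shorter transcript, with a fold of 2.16, a −log10 q of 1.34 and a percentile of 16.6, and its partner in control was a distal peak. At the Pax4 gene start itself a peak was thus called in control alone.

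Insm1, a zinc-finger factor of endocrine and neuroendocrine cells (ENSMUSG00000068154.4, chr2:146047657-146050752, plus strand), had a wide peak over its start in both lists. In control it spanned chr2:146047285-146049617, 2333 bp, with a fold of 2.25, a −log10 q of 5.37 and a percentile of 77.0. In the Taf4-inactivated list it spanned chr2:146047394-146049431, 2038 bp and wholly within the control peak, with a fold of 2.34, a −log10 q of 3.91 and a percentile of 40.1. The difference of −36.9 percentile points was the largest of the 5 members with a value in both lists. By width the peaks stood alike in their lists, at percentiles 98.6 and 98.3.

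Nkx2-2, a homeobox factor of endocrine subtype choice (ENSMUSG00000027434.9, chr2:147003282-147019979, minus strand), likewise had wide peaks over its start, at width percentiles of 96.4 in control and 96.8 after inactivation. The control peak at chr2:147019468-147021374 had a fold of 2.04, a −log10 q of 2.71 and a percentile of 51.2. No start of a protein-coding Nkx2-2 transcript lay within 1 kb of this peak or its Taf4-inactivated partner, which lay at the start of a non-coding transcript of the gene. The partner at chr2:147019460-147021237 had a fold of 2.21, a −log10 q of 2.01 and a percentile of 24.0. A further peak, chr2:147013124-147013359, 236 bp wide, was called after inactivation alone near the start of a shorter, protein-coding Nkx2-2 transcript, with a fold of 2.42, a −log10 q of 2.76 and a percentile of 47.4. This peak was the stronger by fold and set the value of 47.4 for Nkx2-2, and it lay also near a start of 6430503K07Rik. When the peak nearest to each gene start was taken in place of the strongest, the Nkx2-2 percentile difference was −27.3.

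Isl1, a LIM homeobox factor expressed in many hormone-producing cells (ENSMUSG00000042258.5, chr13:117088478-117099896, minus strand), had no control start site peak. After Taf4 inactivation a peak of 363 bp was called at chr13:117099938-117100300, beginning 42 bp upstream of the start, with a fold of 2.25, a −log10 q of 1.54 and a percentile of 30.3. The nearest control peak was 6750 bp away. Isl1 was called after inactivation and not in control both with all transcript starts and with protein-coding ones alone.

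Of the granins, Chga, chromogranin A, a core protein of dense-core granules (ENSMUSG00000021194.5, chr12:103793179-103803237, plus strand), had weak start site peaks in both lists that overlapped by 304 bp. The control peak, chr12:103793459-103793929, began 280 bp inside the gene, with a fold of 1.87, a −log10 q of 1.76 and a percentile of 16.4. The Taf4-inactivated peak, chr12:103792555-103793762, was 1208 bp wide against 471 bp in control and covered the gene start, with a fold of 1.94, a −log10 q of 1.16 and a percentile of 1.6. The latter was among the weakest peaks of its list by fold.

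Chgb, chromogranin B, a further granule protein of neuroendocrine cells (ENSMUSG00000027350.7, chr2:132607014-132620815, plus strand), had the strongest start site peak of the 10 genes in both lists. In control it lay at chr2:132607152-132607686 with a fold of 3.13, a −log10 q of 7.79 and a percentile of 97.1. After Taf4 inactivation it lay at chr2:132607209-132607773 with a fold of 3.59, a −log10 q of 7.71 and a percentile of 88.6. The 2 peaks shared 478 bp, both began downstream of the gene start, and their widths of 535 and 565 bp were near the middle of their lists. The granins thus took the highest and, among the members called in both lists, the lowest places in both libraries.

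Of the hormone genes, Gcg, which encodes proglucagon, the precursor of glucagon and the glucagon-like peptides (ENSMUSG00000000394.9, chr2:62312587-62321707, minus strand), had no peak of any kind in its gene body or the 50 kb on each side in either list. Such an empty window was found for 7.78% of protein-coding genes. Whether an accessible site at Gcg lay below the level at which peaks were called was not tested.

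Cck, which encodes cholecystokinin, a hormone of the upper small intestine (ENSMUSG00000032532.5, chr9:121398943-121404807, minus strand), had a start site peak after Taf4 inactivation and none in control. The peak at chr9:121404787-121405129 covered the gene start and had a fold of 2.12, a −log10 q of 1.73 and a percentile of 12.6. The nearest control peak was 2950 bp away.

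The percentile was lower after Taf4 inactivation for all 5 members called in both lists, and it was also lower for 65.8% of the 14014 protein-coding genes with such peaks. The median difference was −14.8 points over the 5 members and −2.77 over the protein-coding genes, with quartiles of −10.6 and 2.36. A percentile lower by 20 points or more was found for 2 members, Insm1 and Pax4, and for 12.3% of those protein-coding genes. For Pax4 and Nkx2-2 the values of the 2 lists came from different places in the gene. The members called in both lists stood lower than other called genes in each library, with median percentiles of 51.2 in control and 40.1 after inactivation against 88.2 and 82.6. The median differences of −14.8 and −2.77 thus belong to sets with unlike starting places. Protein-coding genes of like percentile in control were not compared, so a fall particular to the members was not tested. When ranked by −log10 p the median difference over the members was −25.2, and 68.1% of protein-coding genes called in both lists were lower by that ranking. By width the median difference was 6.74, with Pax4 at 72.0, Chga at 46.9, Chgb at 6.74, Nkx2-2 at 0.48 and Insm1 at −0.28. Over these 5 genes the direction thus held for the strength of the peaks and not for their breadth.

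Away from the start sites, 54 distal peaks were called in the windows of the members in control and 37 after Taf4 inactivation. The number was lower after inactivation for 7 members, equal for Pax4 and Chga, and 0 in both lists for Gcg, while 58.6% of protein-coding genes had fewer distal peaks after inactivation. A partner was found for 20 of the 54 control peaks, 37.0% (exact Clopper-Pearson 95% interval 24.3 to 51.3), where 51.2% of distal peak and gene pairs of all protein-coding genes had one. Of the 37 Taf4-inactivated peaks 19 had a partner, 51.4% (34.4 to 68.1), against 64.2%. These intervals cover counting error only, and peaks of the same window are not independent. The distal peaks of the members were weaker than those of other genes, with median percentiles of 35.2 in control and 32.1 after inactivation against 44.8 and 50.2. With flanks of 100 kb the medians of the members were higher in both libraries, at 45.8 in control and 52.5 after inactivation. The medians over all protein-coding genes were taken with flanks of 50 kb alone. With flanks of 20 kb the medians of the members stayed low, at 32.7 in control and 27.3 after inactivation. The low place beside other genes could thus be read with flanks of 50 kb alone. At or above percentile 75 of fold were 7 control peaks, or 13.0%, against 22.9% of all pairs, and 5 Taf4-inactivated peaks, or 13.5%, against 25.2%. A −log10 q of at least 2 was reached by 22 control peaks, where 50.4% of all pairs reached it, and by 21 Taf4-inactivated peaks, against 67.6%. At 5 or more there were 4 control peaks (12.4% of all pairs) and 7 Taf4-inactivated peaks (32.4%). The number after inactivation was therefore lower over all calls and at or above percentile 75 of fold. It was near that of control at a −log10 q of at least 2, and higher at 5 or more. Both thresholds on −log10 q kept unlike shares of the 2 lists.

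**Figure D2:**
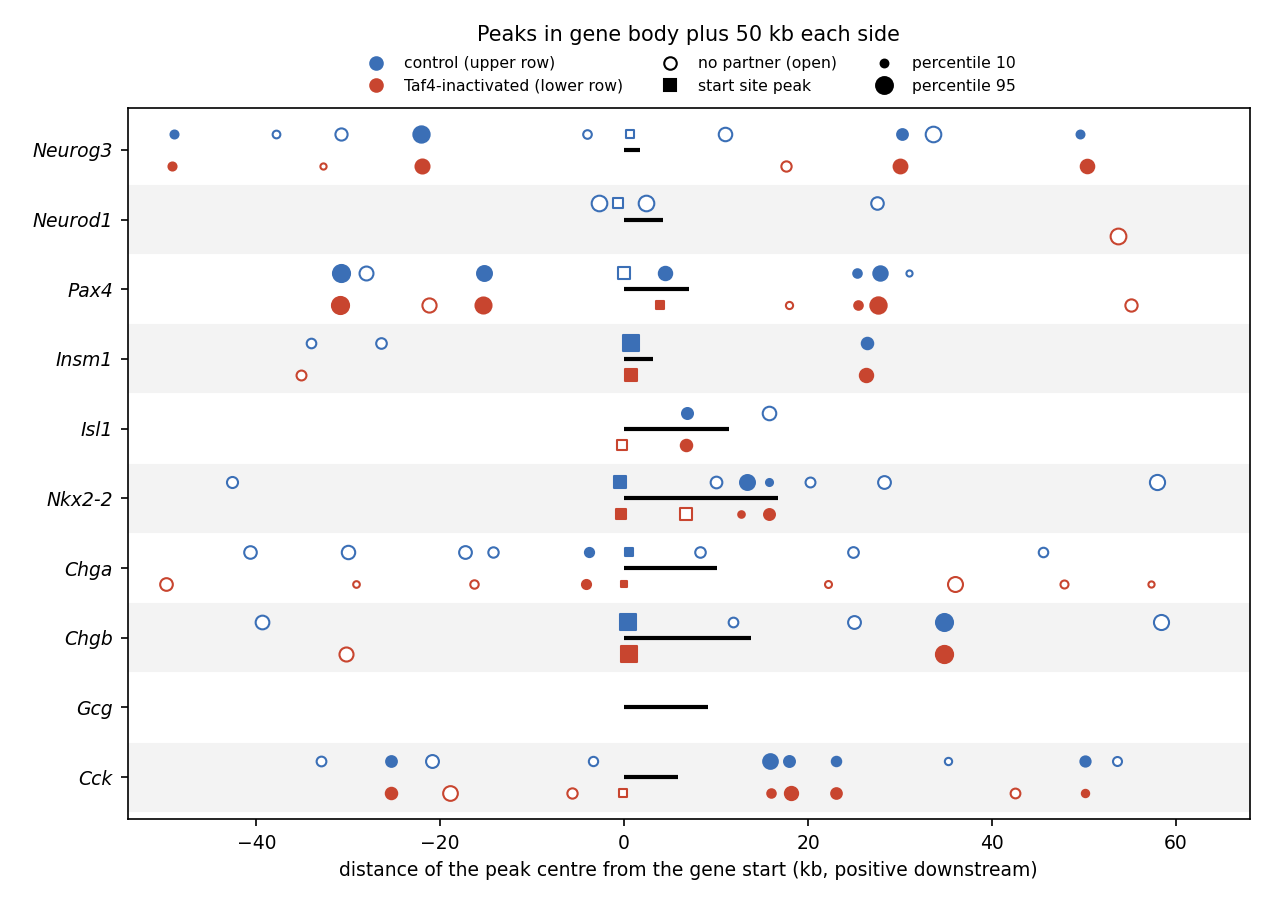
All peaks of the 10 genes by distance of their centre from the gene start in kb (positive downstream, black bar the gene body), with control in the upper row (blue) and Taf4-inactivated in the lower row (red) of each gene. Squares are start site peaks, open symbols have no partner in the other list, and the area of a symbol grows with its fold percentile; Gcg holds no peak, and Neurod1 has 4 open control symbols and 1 open Taf4-inactivated symbol.

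At Neurod1 none of the 4 control peaks and not the only Taf4-inactivated peak had a partner. Over all protein-coding genes, 48.8% of distal peak and gene pairs in control and 35.8% after inactivation had none. For start site peak and gene pairs, of which Neurod1 had 1 in control, that share was 17.2% in control. The control start site peak of Neurod1 and its control peak at chr2:79268932-79269911 were weak, with −log10 q of 1.37 and 1.62. The latter lay within 1 kb of an annotated start of Cerkl. Stronger was the control peak chr2:79299329-79299873, 2.7 kb upstream over an exon of the overlapping transcript Gm17325, with a fold of 2.31, a −log10 q of 3.14 and a percentile of 80.4. A control peak inside the gene, chr2:79294428-79294635, over exonic sequence 2.4 kb from the start, had a fold of 2.30, a −log10 q of 2.88 and a percentile of 80.1. This peak lay also within 1 kb of an annotated start of Gm17325. The Taf4-inactivated peak lay 53.7 kb downstream in an intron of Cerkl, chr2:79243086-79243403, with a fold of 3.22, a −log10 q of 5.44 and a percentile of 81.9. The control peaks at 2.7 and 2.4 kb stood above the start site peak of Neurod1 in percentile, and 3 of the 4 control peaks lay within 3 kb of the gene start, where the Taf4-inactivated list had none.

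At Neurog3, 9 distal peaks were called in control and 6 after inactivation, of which 4 had a partner in each list. The strongest in both lists lay 22.0 kb upstream at a start of 2010107G23Rik, at percentile 88.1 in control (chr10:61573268-61574330, fold 2.49) and 61.8 after inactivation (chr10:61573245-61574472, fold 2.63). A control peak 33.5 kb downstream at chr10:61629235-61629511 had no partner, with a fold of 2.30, a −log10 q of 3.00 and a place above percentile 75, and a Taf4-inactivated peak was called 2762 bp from it.

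At Pax4 most distal peaks were shared, with 5 of 7 control peaks and 4 of 7 Taf4-inactivated peaks having a partner. The strongest, 30.8 kb upstream in control at chr6:28429626-28430722 and at percentiles 98.4 and 98.7, lay at the start of Snd1 and is thus a start site of another gene. The strongest shared distal peak of any member in the Taf4-inactivated list that was at no annotated start lay 15.3 kb upstream of Pax4, at percentile 71.8 in control and 85.2 after inactivation. The 300 bases at the middle of its shared stretch are shown from the plus strand of mm9, with capitals for a match to CAGATG on the minus strand; CAGATG was found in 25.3% of the central 300 bases of the 91955 distal peaks of at least that width in both lists.
Pax4 distal peak, chr6:28414547-28414846, plus strand: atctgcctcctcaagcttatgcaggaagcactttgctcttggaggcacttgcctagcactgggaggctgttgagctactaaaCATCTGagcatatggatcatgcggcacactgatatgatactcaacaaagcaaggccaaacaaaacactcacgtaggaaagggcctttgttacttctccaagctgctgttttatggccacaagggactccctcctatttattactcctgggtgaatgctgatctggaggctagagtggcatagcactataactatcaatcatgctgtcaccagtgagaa
This stretch was 47.0% G or C with 2 CpG dinucleotides and held none of the other motifs searched.

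At Insm1 the strongest distal peak of both lists was the same one, 26.4 kb downstream in control over an exon of Ralgapa2, at percentile 36.9 in control and 54.8 after inactivation. Isl1 had 2 distal peaks in control and 1 after inactivation. A peak inside the Isl1 gene, 6.8 kb from the start in control, was shared and stood at percentile 32.7 in control and 36.6 after inactivation, and the strongest control peak, 15.8 kb from the start and beyond the gene end, had no partner (percentile 57.1). Nkx2-2 had 7 distal peaks in control and 2 after inactivation, the widest gap in number among the members. Its strongest control peak, 57.9 kb from the start at chr2:146961514-146962548, had a percentile of 75.1 and no partner, and its strongest Taf4-inactivated distal peak lay in an intron of the gene at percentile 32.1.

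Chga had 8 distal peaks in each list, of which 1 in each had a partner. The strongest was unshared in each list, at percentile 55.7 in control, 30.1 kb upstream, and at percentile 72.5 after inactivation, 36.0 kb downstream in an intron of Itpk1 (chr12:103829037-103829358, fold 2.88, −log10 q 6.45). Equal numbers at Chga therefore did not mean the same sites. At Chgb, with 5 distal peaks in control and 2 after inactivation, the shared peak lay 34.8 kb downstream at the starts of Mcm8 and Trmt6, at percentiles 97.5 and 99.7. Cck had 10 distal peaks in control and 8 after inactivation, with 5 shared in each list. Its strongest control peak, 15.8 kb downstream (chr9:121388865-121389076), stood at percentile 69.0 and its partner at 14.2. Its strongest Taf4-inactivated distal peak, upstream of the gene (chr9:121423558-121423966, fold 2.80, −log10 q 3.54), had a percentile of 69.4 and no partner.

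Sequence composition around the gene start took no part in choosing the genes, and it varied widely among them. In the 1 kb on each side of the start, CpG observed over expected was 0.951 for Insm1, above 99.1% of protein-coding genes. Isl1 followed with 0.781, Nkx2-2 with 0.673 and Neurog3 and Neurod1 with 0.517 each, while Pax4, at 0.107, had the lowest value of the 10. The granins had 0.503 (Chgb) and 0.410 (Chga), and the hormone genes 0.368 (Gcg) and 0.321 (Cck). The median was 0.595 over the 6 factors and 0.389 over the 4 others, beside 0.468 over all protein-coding genes. Among protein-coding genes the median was 0.611 for those called at the start site in both lists, 0.262 for control alone, 0.276 for the Taf4-inactivated list alone and 0.174 for neither. Insm1, Isl1, Neurog3, Neurod1 and Gcg lay above the upper quartile of the protein-coding genes called in the same lists, and Pax4 and Chga lay below the lower quartile.

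**Figure D3:**
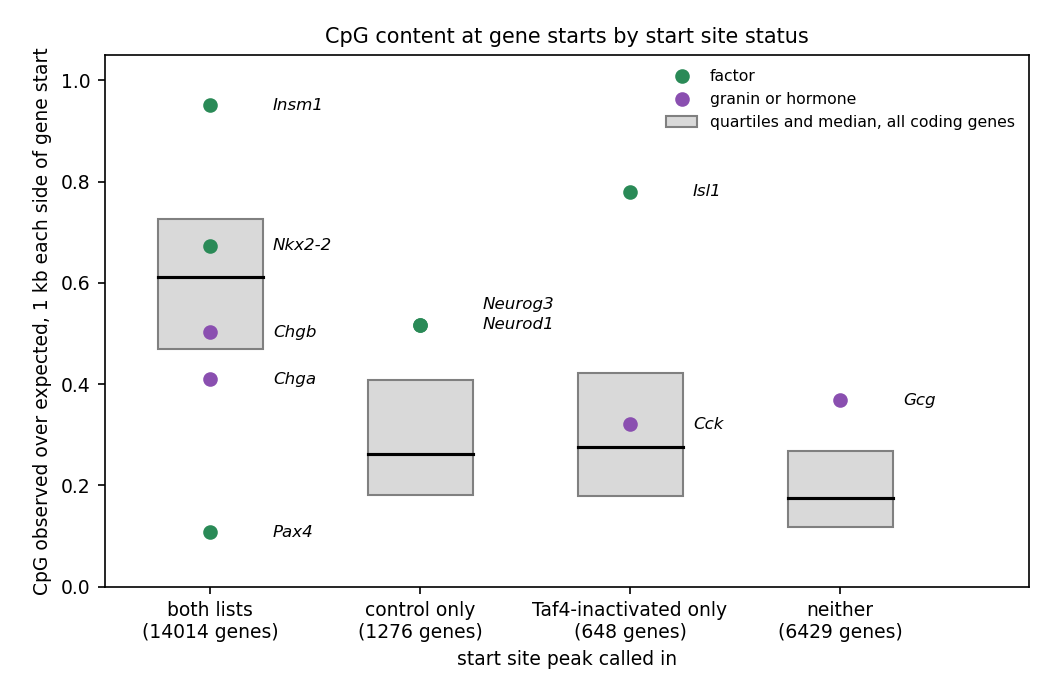
CpG observed over expected within 1 kb of the gene start (vertical axis) by the lists in which a start site peak was called (horizontal axis), with grey boxes for the quartiles and a line for the median of all protein-coding genes of that status and points for the 10 members (green, factors; purple, granins and hormones). Insm1 at 0.951, Isl1 at 0.781, Neurog3 and Neurod1 at 0.517 and Gcg at 0.368 stand above their boxes, and Pax4 at 0.107 and Chga at 0.410 below theirs.

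Over the same 2 kb, 8 of the 10 genes held CAGATG (71.6% of protein-coding genes), 7 held CAGCTG (62.5%), 7 the RE1 part (39.4%), 5 the TATA box (59.6%), 5 the GATA motif (57.7%), 5 the AP-1 motif (37.3%), 3 the FOXA motif (20.7%) and 3 TGACGTC (9.06%). The RE1 part was absent in Neurog3, Insm1 and Nkx2-2. The matches to TGACGTC were in Isl1, Chgb and Gcg, 2 of them in each of Chgb and Gcg. The stretch shown for Chga held TGACGTA, which this search does not match, so variants of the cAMP response element were not counted. Cck held 5 CAGATG matches and Gcg 4, the most among the members. Within 50 bp upstream of the start, on the strand of the gene, TATAAA was found for Chga and Gcg and for 3.09% of protein-coding genes.

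A wider list of 41 enteroendocrine genes, none of them among the 10, was described in the same way. Of these, 23 were called at the start site in both lists (62.7% of protein-coding genes), 6 in control alone (Prox1, Pyy, Ffar1, Gpbar1, Gpr119 and Casr; 5.70%), 4 after Taf4 inactivation alone (Fev, St18, Sst and Scg3; 2.90%) and 8 in neither (28.7%). When −log10 q had to reach 5, the balance of calls in 1 list turned, with 0 in control alone (1.41%) and 5 after inactivation alone (12.4%). Among 14 further transcription factors 11 were called in both lists, and of these 10 had a lower percentile after inactivation, by fold as by −log10 p. The median difference of the 11 was −21.2 points, and the 65.8% of protein-coding genes with a lower percentile by fold (68.1% by −log10 p) stand beside it. The median percentile of the 11 in control was 75.5, against 88.2 for protein-coding genes called in both lists. Genes of like percentile in control were not compared. For Myt1 the peaks of the 2 lists did not overlap, and without it 9 of 10 were lower, with a median of −16.6. The largest difference among them was that of Runx1t1, a corepressor gene, at 88.8 in control and 48.0 after inactivation. A start site peak was called in control alone for Prox1, a homeobox factor (percentile 83.6). The Prox1 control peak nevertheless overlapped a Taf4-inactivated peak, which did not lie within 1 kb of an annotated Prox1 start. After inactivation alone one was called for Fev (3.30), a factor of serotonin cells, and for St18, at a fold of 2.69.

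Of 11 hormone and peptide genes and enzymes of monoamine synthesis 6 were called in both lists, with a lower percentile in 2 by fold and 3 by −log10 p, and a median difference of 13.4 points. For Tph1 the peaks of the 2 lists did not overlap, and without it 2 of 5 were lower by fold. Sct, which encodes secretin, had the largest difference upward in the wider list, at 15.4 in control and 48.3 after inactivation. The start site of Pyy, the peptide YY gene of ileal and colonic endocrine cells, was called in control alone (13.5), and that of Sst, the somatostatin gene, after inactivation alone (42.6). Of 9 granule and secretion genes 4 were called in both lists and 1 of these was lower, with a median difference of 14.7 points, while the granins Chga and Chgb, described above, were both lower. Syp, which encodes the vesicle protein synaptophysin, stood at 40.8 and 66.7, and Scg3, a granule protein gene, was called after inactivation alone (69.2). Of the 7 receptors for nutrients and bile acids 2 were called in both lists, both lower (as for 65.8% of protein-coding genes called in both), and 4 in control alone (5.70%). Ffar4, a receptor for long-chain fatty acids, had the largest difference downward in the wider list, at 82.1 in control and 23.7 after inactivation. The 4 receptors in control alone were Ffar1 (39.9), Gpbar1, the bile acid receptor (1.25), Gpr119 (50.7) and Casr, the calcium-sensing receptor (44.3), and for the latter 3 the −log10 q was between 1.41 and 1.70. Whether the groups of genes differed in direction from each other was not tested.

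**Figure D4:**
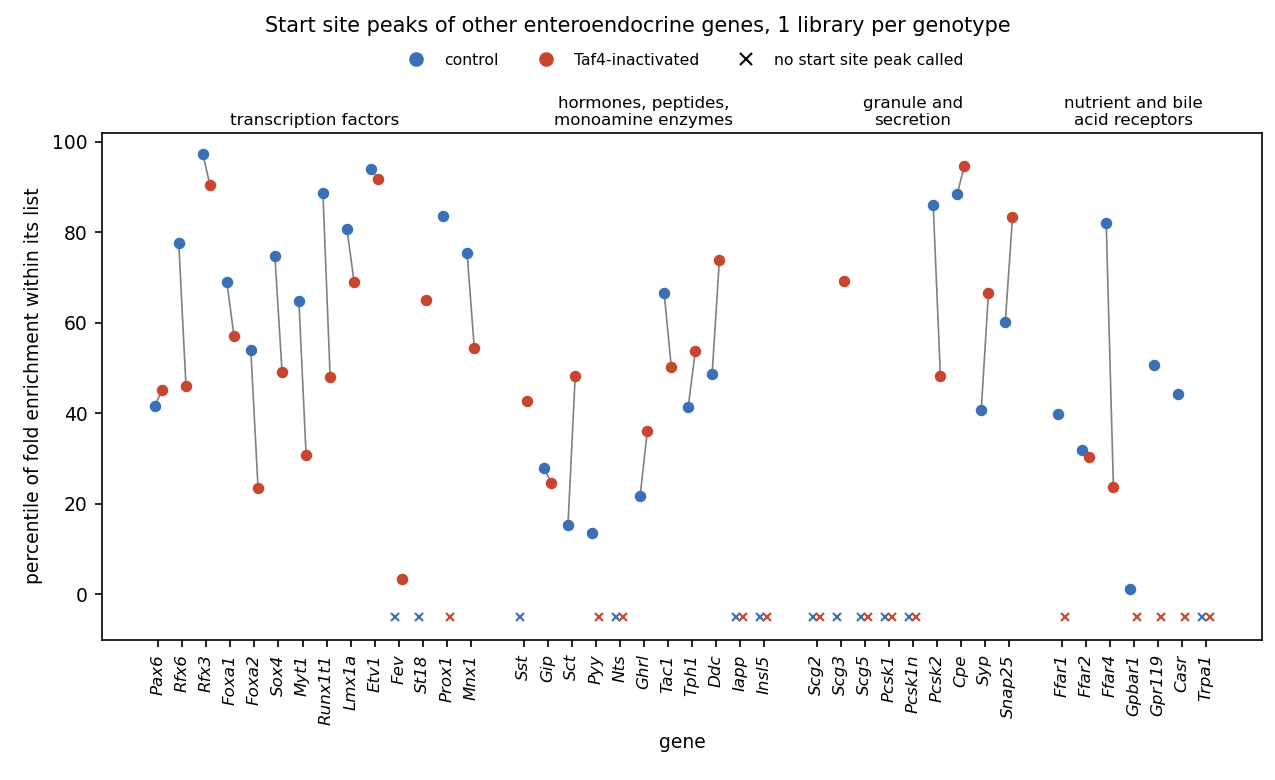
Start site peaks of 41 further enteroendocrine genes by role, with the percentile of fold within its own list on the vertical axis for the control (blue) and Taf4-inactivated (red) library and crosses below 0 where no peak was called. Grey lines slope down for 10 of 11 transcription factors and up for 4 of 6 hormone, peptide and monoamine genes and 3 of 4 granule genes called in both libraries.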

How the data were processed

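The authors mapped ATAC-seq reads of 1 control and 1 Taf4-inactivated library to mm9 with Bowtie, where reads with several matches were dropped, and ran MACS2 on each library by itself to obtain broad peaks (Bowtie 1.0.0 and MACS2 2.1.1 in the submitters' processing notes). The deposited score is 10 times the −log10 q as a whole number, and was not used here. The deposited fold is a ratio to the background of the same library, and the deposited −log10 p and −log10 q are averages over a peak. Samples were grouped by the genotype in the labels. Peaks, converted to 1-based coordinates, were assigned to genes with the GENCODE vM1 annotation of the same assembly (Python 3.11.15, numpy 2.4.6, pandas 2.3.3, scipy 1.17.1). Sequences were read from the reference with pysam 0.24.0. Figures used matplotlib 3.10.9. Relative depth was estimated from fold and p of the narrowest 10% of peaks, at the 5th percentile of the background they imply, and was off by at most 0.156% in 3 simulated pairs of libraries.

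With 1 library per genotype no p-value was computed. The 10 genes and all lists were chosen with earlier results of these data known. Named were all 10 genes, their strongest distal peak in each list, unpartnered distal peaks from percentile 75 up, and, of the wider list, genes called in 1 list alone and the 2 largest differences in each direction. Ffar4 was matched through an older symbol, and 3 genes of the lists are not reported here. Alternatives changed the start site distance, flank, q threshold, overlap, ranking value, choice of peak and transcript set; ranking the wider list by −log10 p, and leaving out wider genes whose peaks did not overlap, were chosen after seeing the data. Read-level signal was not used here.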

Additional observations from a re-analysis of the deposited data

How the results depend on the processing

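Of 114 values recomputed under an alternative setting, 73 moved by less than the limits set for them, 36 moved by more and 5 reversed. A threshold on −log10 q moved most of the counts. At 2 or more, start site peaks of the 10 genes were called in both lists for 3, in control alone for 0, after Taf4 inactivation alone for 0 and in neither for 7, and at 5 or more for 1, 1, 0 and 8. With start sites of protein-coding transcripts alone, 3 were called in both lists, since Pax4 was then called in control alone and Nkx2-2 after inactivation alone. For the 41 wider genes these counts were 14, 4, 7 and 16 at 2 or more, while at 5 or more 3 were called in both lists, 0 in control alone, 5 after inactivation alone and 33 in neither. Distal peaks of the 10 genes numbered 25 in control and 15 after inactivation with flanks of 20 kb, 113 and 88 with 100 kb, 22 and 21 at a −log10 q of 2 or more, and 4 and 7 at 5 or more, where 100% of the control peaks had a partner. Requiring an overlap of 50% of both peaks left partners for 20.4% of control and 29.7% of Taf4-inactivated distal peaks. With flanks of 100 kb the median percentile of distal peaks was 45.8 in control and 52.5 after inactivation, and with 20 kb it was 32.7 and 27.3. The median difference in start site percentile over the 5 genes was −25.2 when ranked by −log10 p and −27.3 for the peak nearest to the gene start. It reversed to 6.74 when ranked by width, with reversed values for Pax4 (72.0), Nkx2-2 (0.48), Chga (46.9) and Chgb (6.74). The cause was not tested. No paired analysis was possible because each genotype had 1 library, and no replicate could be left out. The lower depth after inactivation limits what a missing weak peak there can show.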
